A study of Drosophila melanogaster with 8 samples.

Results

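The nuclear genes *ND-B8*, *ND-13A* and *ND-51* encode subunits of mitochondrial complex I, and their 4 clones on a 2-colour *Drosophila* cDNA array are described here across 8 arrays. They were chosen by name, as every clone whose gene symbol on the platform, or current symbol for the same Entrez identifier, is one of these 3. They are 3 of the 2377 genes named by clones with a single symbol, and 4 of all 8448 clones on the array. *ND-13A* has 2 clones, called clone 1 and clone 2 below.

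Complex I, or NADH:ubiquinone oxidoreductase, is the entry point of the respiratory chain. It takes electrons from NADH, passes them along a chain of cofactors to ubiquinone and uses the energy released to pump protons across the inner mitochondrial membrane. *ND-51* (CG9140) encodes the core subunit that binds NADH and the flavin cofactor, the counterpart of mammalian NDUFV1. *ND-13A* (CG8680) and *ND-B8* (CG15434) encode small accessory subunits, the counterparts of mammalian NDUFS6 and NDUFA2. In mammals all these proteins sit in the NADH-binding part of the arm of the complex that reaches into the matrix. The genes are not neighbours: at least 104 annotated genes lie between any pair of them.

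All arrays carried total RNA of whole adult females of the strain Oregon-R, aged 4-10 days, in pools of about 240 flies. Each pool received 2 mL of ethanol (99%) on the body surface in a Potter's tower, an even-spray device, and was sampled after 6 h, so that no untreated or otherwise treated group exists. The 8 pools were hybridized in 4 fixed pairs (pools 1 and 2, 3 and 4, 5 and 6, 7 and 8), each pair once in the normal-label orientation, with the odd pool in Cy3, and once in the reversed-label orientation, with the odd pool in Cy5. This gave 4 normal-label and 4 reversed-label arrays and asked how far ratios vary when the RNA on both channels was treated alike.

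A value is the log2 ratio of the 2 channels of an array, averaged over the 2 spots of a clone. The log base is inferred, and which channel is the numerator is not given in the sources used here. Ratios hold no absolute level, so that neither the abundance of these transcripts nor the presence of a tissue's markers in a pool could be checked. Differences of such markers between pools are given further on. Between pools of whole flies, fewer cells of a type and less RNA per cell cannot be told apart. The normal-label array of pair 3 had the widest spread, with 7.63% of all clones past 2-fold, against 0.604% to 1.88% on the other arrays. Within its label group the pair 3 array with reversed label was unlike the others, correlating with the other reversed-label arrays at -0.14 to 0.03 across clones. Both of these arrays enter the results below.

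*ND-B8* read -0.65, -0.86, -1.94 and -0.42 on the normal-label arrays of pairs 1 to 4, against 0.10, 0.68, -0.34 and 0.47 on the reversed-label arrays. Every normal-label value was lower than every reversed-label value, as in 6.52% of all clones. The nearest values were -0.42 and the -0.34 of pair 3, whose spots read 0.57 and -1.26, so that the separation does not hold by the second spot. The sign was negative on all normal-label arrays and positive on the reversed-label arrays of pairs 1, 2 and 4, with pair 3 the exception.

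Clone 1 of *ND-13A* read -0.77, -0.23, -1.46 and -0.33 on the normal-label arrays, against 0.05, 0.53, -0.52 and 0.73 on the reversed-label arrays. It had the same signs as *ND-B8* on 8 of 8 arrays. Its label groups overlapped through pair 3, whose reversed-label value lay below the normal-label values of pairs 2 and 4.

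Clone 2 of the same gene read -0.48, 0.32, -0.47 and -0.19 on the normal-label arrays, against -0.21, 0.31, -0.61 and 0.46 on the reversed-label arrays. Here the 2 arrays of pairs 1, 2 and 3 had the same sign, and only pair 4 changed sign with the label. The label groups overlapped widely.

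*ND-51* ran the other way, with 0.32, 0.53, 0.71 and 0.18 on the normal-label arrays, against -0.30, -0.21, -0.01 and -0.64 on the reversed-label arrays. All normal-label values were positive and all reversed-label values were negative, the one of pair 3 by very little. The groups did not overlap, and the 2 arrays had opposite signs in 4 of 4 pairs. Over all clones, 12.8% had label groups that did not overlap, 6.3% with the normal label higher, and 7.99% had opposite signs in all 4 pairs.

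**Figure D1:**
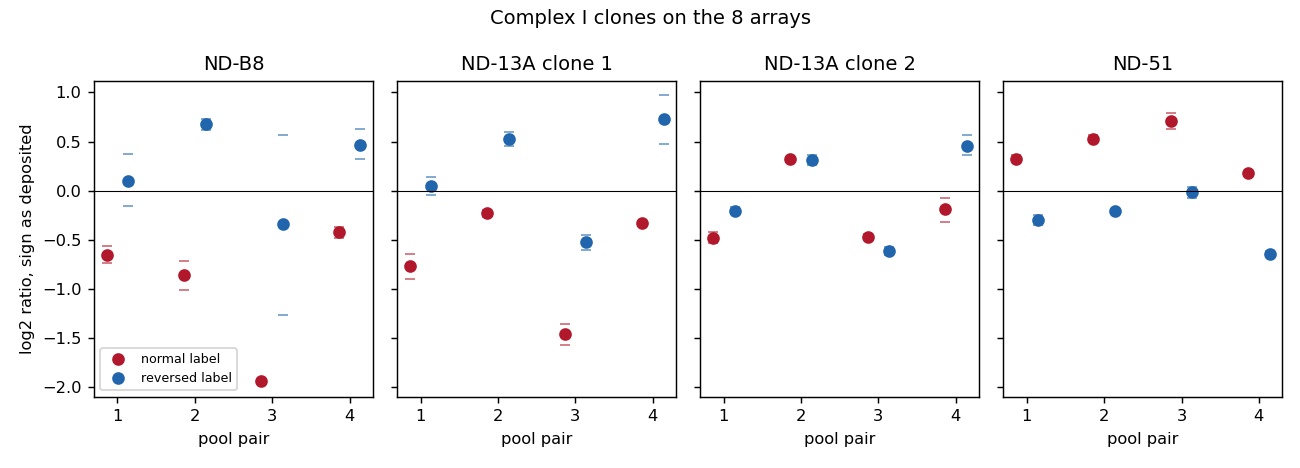
Log2 ratio (vertical axis, sign as deposited) of each complex I clone in the 4 pool pairs (horizontal axis), with normal-label arrays in red left of reversed-label arrays in blue; points are clone means and dashes the 2 spots. By clone means, ND-B8 and ND-51 separate the label groups in opposite directions, and ND-B8 and ND-13A clone 1 reach -1.94 and -1.46 on the normal-label array of pair 3.

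Only 2 of the 32 clone values lay past 2-fold, both on the normal-label array of pair 3. They were *ND-B8*, a 3.83-fold difference and the value of rank 17 from the lowest of 8448, and clone 1 of *ND-13A*, a 2.76-fold difference at rank 68. On the same array *ND-51* was 1.63-fold from equality, with 90.9% of clones below it, and clone 2 of *ND-13A* was 1.39-fold from equality, with 16.8% of clones below it.

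The duplicate spots show how well each value is held. The median gap between the 2 spots of a clone over the 8 arrays was 0.07 log2 units for *ND-51*, 0.09 for clone 2 and 0.17 for clone 1 of *ND-13A*, and 0.24 for *ND-B8*, against 0.19 over all clones and arrays. The low *ND-B8* value on the normal-label array of pair 3 was shared by its spots, at -1.95 and -1.92. On the reversed-label array of that pair the gap of 1.84 between its spots was larger than the gap of 99.4% of clones on the array, so the mean of -0.34 there stands for neither spot. Its spots also differed in sign on the reversed-label array of pair 1 (-0.16 and 0.37, a gap larger than that of 89.2% of clones). The widest gap of clone 1 was 0.49, on the reversed-label array of pair 4 (0.48 and 0.97, larger than that of 84.8% of clones).

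**Figure D2:**
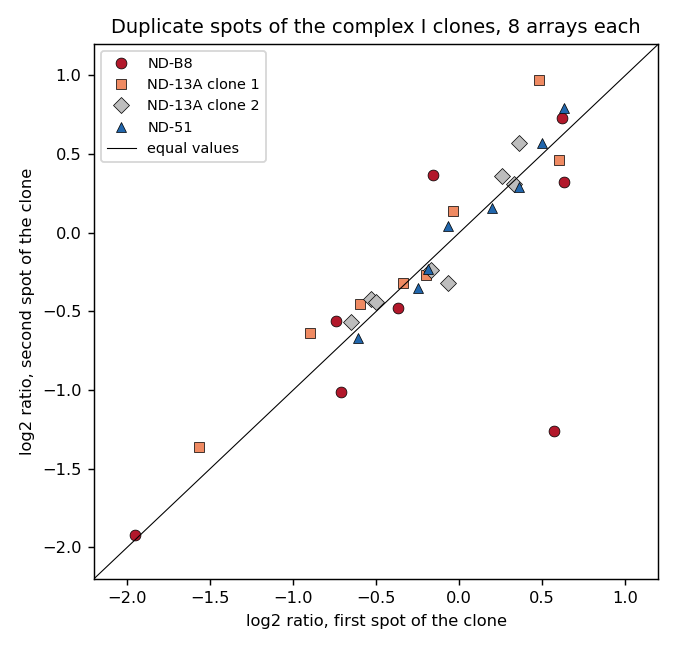
Log2 ratio of the second spot (vertical axis) against the first spot (horizontal axis) of each complex I clone, 1 point per array, with the line of equal values. Farthest from the line is the ND-B8 point of the reversed-label array of pair 3, at 0.57 and -1.26, and next come the ND-B8 point at -0.16 and 0.37 and the ND-13A clone 1 point at 0.48 and 0.97.

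The first comparison asked which part of a ratio follows the dye and not the pool. With the ratio read as one pool over the other, the likely direction, the normal-label value minus the reversed-label value, divided by 2, is the dye component of a pair. A positive value means more signal in dye A, which labels the numerator pool on arrays of normal label, and a negative one more signal in the other, dye B. Which of Cy3 and Cy5 is dye A is unknown. The mean over 4 pairs was tested against 0 with limma across all clones, with Benjamini-Hochberg adjustment at 5%, where 8.56% of the 8448 clones passed, 4.25% towards dye A and 4.31% towards dye B. Of the 4 complex I clones 3 passed, 2 towards dye B and 1 towards dye A.

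*ND-B8* had dye components of -0.38, -0.77, -0.80 and -0.45 in pairs 1 to 4. Their mean was -0.60 ± 0.21 (SD, n = 4 pairs, limma adjusted p = 0.0189), a 1.51-fold difference towards dye B. Pairs 2 and 3 lay lower than pairs 1 and 4. Because its spots disagreed on 1 array of pair 3, the component of that pair was -1.26 from the first spot and -0.33 from the second.

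Clone 1 of *ND-13A* had dye components of -0.41, -0.38, -0.47 and -0.53, with a mean of -0.45 ± 0.07 (SD, n = 4 pairs, limma adjusted p = 0.0186), a 1.36-fold difference. The pairs lay close together although the single arrays ranged widely. Clone 2 had components of -0.13, 0.00, 0.07 and -0.33 and a mean of -0.10 ± 0.18 (SD, n = 4 pairs, limma adjusted p = 0.498), with a 95% interval of -0.29 to 0.10. Thus 1 of 2 clones of this gene passed.

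*ND-51* had dye components of 0.31, 0.37, 0.36 and 0.41. The mean of 0.36 ± 0.04 (SD, n = 4 pairs, limma adjusted p = 0.0214), a 1.29-fold difference towards dye A, had the smallest spread over pairs among the 4 clones. The pair means hide opposite deviations of single arrays, since the normal-label values alone ranged from 0.18 to 0.71.

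These calls rested on the full set of pairs. Leaving out pair 1, 2 or 3 left 0 of the 4 clones past 5%, the 3 called clones standing at limma adjusted p of 0.0537 to 0.0988, and leaving out pair 4 left 2, with *ND-51* at adjusted p = 0.0567. Clone 1 of *ND-13A* also did not pass with the pair as a random block over the 8 arrays (limma adjusted p = 0.0525). With the ratio read in the other direction, the dye and pool components change places and 0 of the 4 clones passed the dye test, while the same 3 values then belonged to the pool component.

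**Figure D3:**
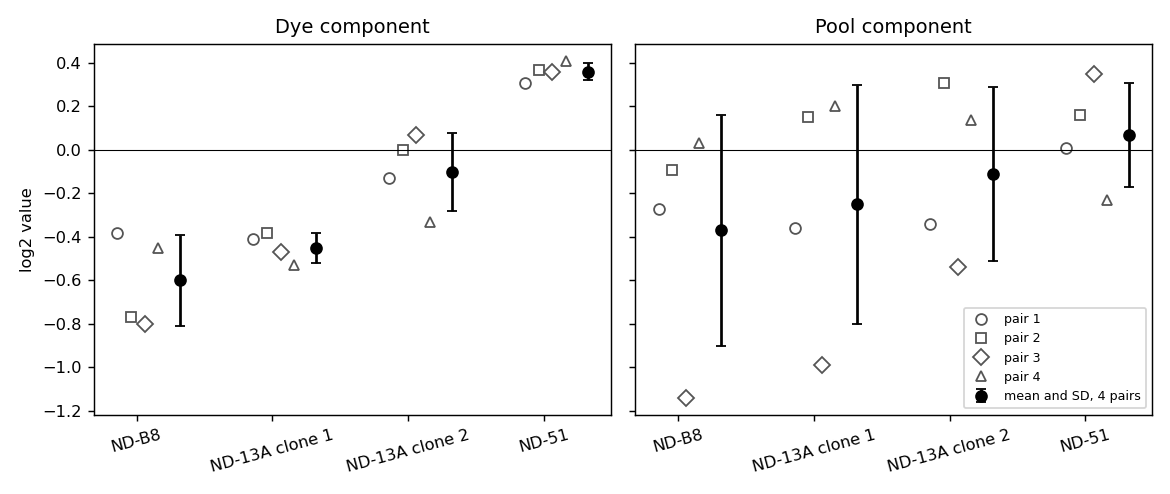
Dye component (left) and pool component (right) in log2 units (vertical axis) of each complex I clone in pairs 1 to 4, with the mean and SD over 4 pairs in black. The dye components of ND-13A clone 1 and ND-51 cluster tightly around -0.45 and 0.36, while the pool components scatter across 0 with pair 3 lowest for ND-B8 and both ND-13A clones.

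The clones were also set against each other pair by pair. The dye component of clone 1 of *ND-13A* minus that of clone 2 was -0.35 ± 0.15 (SD, n = 4 pairs) and lay between -0.54 and -0.20, below 0 in 4 of 4 pairs. An exact two-sided sign-flip permutation test gave p = 0.125, the smallest that 4 pairs allow, and an adjusted p of 0.15 over the 6 clone pairs compared. Array by array, clone 1 was lower than clone 2 on all 4 normal-label arrays, by 0.29, 0.55, 0.99 and 0.14, and higher on all 4 reversed-label arrays, by 0.26, 0.22, 0.08 and 0.26. *ND-B8* minus *ND-51* was -0.96 ± 0.23, and clone 1 of *ND-13A* minus *ND-51* was -0.81 ± 0.10 (SD, n = 4 pairs, exact permutation p = 0.125 each). *ND-B8* minus clone 1 of *ND-13A* was -0.15 ± 0.24, with both signs among the pairs (exact permutation p = 0.50).

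The second comparison asked whether the numerator pool differed from its partner. The pool component of a pair is the sum of its normal-label and reversed-label values, divided by 2. Odd and even pools were treated alike, and the mean over pairs is therefore a null comparison. It passed 5% for 0 of 4 complex I clones and for 0% of all clones in limma, while 5.34% of all clones and none of the 4 had an unadjusted p under 0.05. The means were -0.37 ± 0.53 for *ND-B8*, -0.25 ± 0.55 and -0.11 ± 0.40 for clones 1 and 2 of *ND-13A*, and 0.07 ± 0.24 for *ND-51* (SD, n = 4 pairs). Each 95% interval held 0, that of *ND-B8* running from -0.79 to 0.05. Without pair 3 the means were -0.11 for *ND-B8*, 0.00 and 0.04 for clones 1 and 2 of *ND-13A*, and -0.02 for *ND-51*.

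Single pairs were then tested in 1 model of the 8 arrays that shares a dye term, in which the spread between the 2 arrays of a pair is the error. This error is technical, so these p-values speak of these pools only. The F-test over the 4 pairs passed 5% for 0 of the 4 clones and 0% of all clones. Without adjustment, 14.9% of all clones and 3 of the 4 complex I clones stood under 0.05. The limma adjusted p was 0.123 for clone 1 of *ND-13A*, 0.164 for *ND-B8*, 0.298 for clone 2 of *ND-13A* and 0.385 for *ND-51*, the clone that did not stand under 0.05.

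The ratio being read as pool over pool, the largest values fell in pair 3, pools 5 and 6. The pool component of *ND-B8* was -0.27, -0.09, -1.14 and 0.03 in pairs 1 to 4. That of *ND-13A* was -0.36, 0.15, -0.99 and 0.20 in clone 1, and -0.34, 0.31, -0.54 and 0.14 in clone 2. In *ND-51* it was 0.01, 0.16, 0.35 and -0.23. The 3 clones of the accessory subunits were lowest in pair 3 in this reading, and *ND-51* was highest there. In the other reading the values of the pairs are those given above as dye components, in which pair 3 is lowest for *ND-B8* alone (-0.80, with -0.77 in pair 2), while both clones of *ND-13A* are lowest and *ND-51* is highest in pair 4.

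In pair 3, where 3.2% of all clones passed and 1.62% passed as lower in the numerator pool, *ND-B8* (limma adjusted p = 0.0306) and clone 1 of *ND-13A* (limma adjusted p = 0.0233) passed as lower. Clone 2 of *ND-13A* (limma adjusted p = 0.108) and *ND-51* (limma adjusted p = 0.148) did not pass. The 95% interval ran from -1.57 to -0.71 for *ND-B8*, from -1.30 to -0.69 for clone 1, from -0.93 to -0.15 for clone 2 and from 0.05 to 0.64 for *ND-51*. From the first spot alone the *ND-B8* value was -0.69, and from the second -1.59. In pairs 1, 2 and 4, where 0% of all clones passed, none of the 4 clones passed. Without adjustment, 23.8% of all clones stood under 0.05 in pair 3, and all 4 complex I clones did. In pairs 1, 2 and 4 the shares were 6.5%, 7.4% and 5.36%, and clone 1 of *ND-13A* in pair 1 was the only complex I value under 0.05.

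The pair 3 calls of both clones ended when either array of pair 3 was left out, although the values stayed below 0. Without the normal-label array they were -0.88 for *ND-B8* and -0.96 for clone 1 (limma adjusted p = 0.319 and 0.233), and without the reversed-label array -1.40 and -1.02 (limma adjusted p = 0.0691 and 0.0773). The calls also ended without pair 1 (limma adjusted p = 0.066 for each) and without pair 2 (0.0633 and 0.0569), with the values of pair 3 themselves unchanged at -1.14 and -0.99. Scaling the arrays to one spread, which narrows the normal-label array of pair 3, gave -0.78 and -0.74 (limma adjusted p = 0.174 and 0.176).

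The remaining respiratory chain could be followed only in part. Of 48 complex I genes listed, *ND-B8*, *ND-13A* and *ND-51* are the 3 with a named clone. Of 61 genes listed for complexes II to V and cytochrome c, 6 had a clone, 7 clones in all. Apart from *COX7C*, these genes bear the name of a subunit gene with an added L. Whether their values stand for the subunit genes without the L was not tested. Ratios hold no absolute level, so expression of these genes in the female pools could not be checked either. In the dye component 0 of these 7 clones passed, with a median of -0.05, against a median of 0 over all clones. Nearest to the threshold stood *UQCR-11L*, named for a subunit of complex III (-0.46 ± 0.31, limma adjusted p = 0.0547), and *COX7C*, a subunit of cytochrome c oxidase (-0.23 ± 0.10, limma adjusted p = 0.084; SD, n = 4 pairs each).

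In pair 3, 0 of these 7 clones passed, with a median pool component of -0.36 and a range of -0.84 to -0.11, against a median of 0 over all clones. All 7 were below 0, as were 4168 of 8448 clones and 3 of the 4 complex I clones. In the other reading of the ratio, 5 of the 7 were below 0, with 4270 of 8448 clones and 2 of the 4 complex I clones, and the median of the 7 was -0.10. *UQCR-11L* stood at -0.84 and *COX7C* at -0.53 (limma adjusted p = 0.0874 and 0.0783). *ATPsynGL*, named for a subunit of ATP synthase, stood at -0.43, *COX6AL* at -0.32 and *COX7AL* at -0.11, both named for cytochrome c oxidase subunits, and the 2 clones of *SdhBL*, named for the iron-sulphur subunit of complex II, at -0.36 and -0.12.

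**Figure D4:**
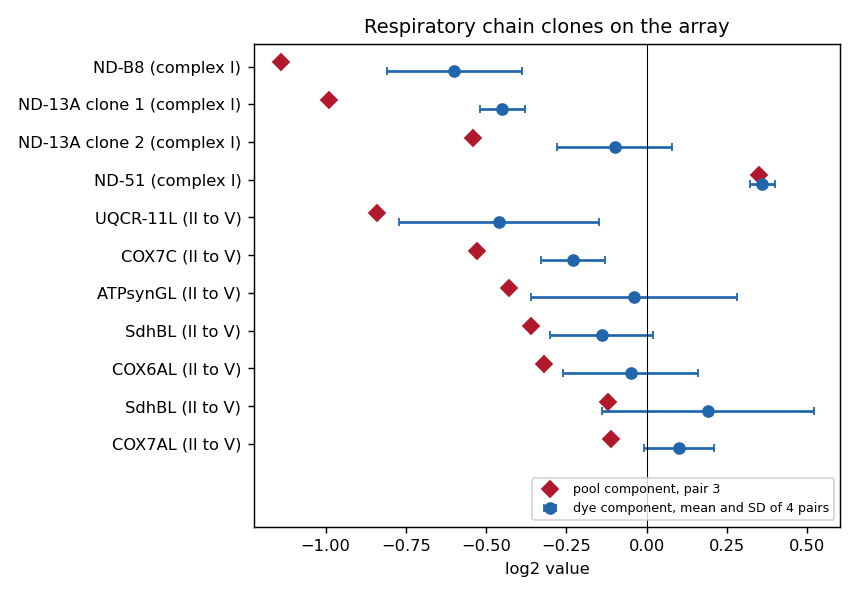
Pool component of pair 3 (red) and mean dye component with its SD over 4 pairs (blue), in log2 units (horizontal axis), for the 4 complex I clones and 7 clones of complexes II to V. Red points run from -1.14 for ND-B8 to 0.35 for ND-51, the only one of these clones above 0 in pair 3 when the ratio is read as pool over pool; in the other reading ND-13A clone 2 (0.07), COX7AL (0.18) and COX6AL (0.09) are above 0 too.

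Other mitochondrial lists had no clone past 5% in the dye component or in pair 3. Their median dye components were 0.06 for the TCA cycle and pyruvate dehydrogenase (6 clones of 4 genes), 0.05 for import, carriers and prohibitins (6 clones of 6 genes) and -0.20 for mitochondrial ribosomal proteins (3 clones of 3 genes). Their medians in pair 3 were -0.14, 0.12 and -0.43. With the ratio read as pool over pool, single clones had larger pool components in pairs 1 and 2. *Fum4* stood at -0.97 and -1.54 there, *tomboy20* at -0.89 and -1.03, and *Scsalpha1* at 1.42 and -0.31. None of them passed in these pairs, where 0% of all clones passed. In the F-test their limma adjusted p was 0.124, 0.121 and 0.159.

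Marker lists of flight muscle, ovary, nervous system and the male reproductive tract, which pools of females should lack, were followed in the same pair. Of 8 clones on the flight muscle list, from 7 of 14 listed genes, 2 passed in pair 3, against 3.2% of all clones. How far each listed gene is particular to flight muscle was not tested. These were the troponin C genes *TpnC41C* (-1.39) and *TpnC73F* (-1.31), with limma adjusted p = 0.0233 each. The list median was -0.31. Of the muscle clones not passing, 3 were above 0, *Tm2* at 0.63, 1 of 2 clones of *Strn-Mlck* at 0.39 and *Prm* at 0.15. The rest were below 0, the other *Strn-Mlck* clone at -0.73 and *Act88F* and *up* at -0.31 each. The male list had 1 of 4 clones past 5%, *ocn* (-1.36, limma adjusted p = 0.0316). Its other clones did not pass, *dj* at -0.43, *Acp36DE* at -0.33 and *betaTub85D* at 0.40. None passed in the ovary list (4 clones, -0.58 to 0.48) or the nervous system list (5 clones, -0.57 to -0.15). In the dye component, where 8.56% of all clones passed, 3 of the 8 muscle clones passed, *Tm2*, a tropomyosin gene, towards dye A (1.10 ± 0.43, limma adjusted p = 0.0184) and *TpnC41C* (-0.69 ± 0.20, limma adjusted p = 0.0184) and *TpnC73F* (-0.35 ± 0.16, limma adjusted p = 0.0408) towards dye B. So did *Sh* and 1 of 2 clones of *slo*, potassium channel genes of the nervous system list, at -0.37 and -0.41, and *mael* of the ovary list at -0.41, all towards dye B. Their part in the complex I values was not tested.

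The clones most like each member were found by Pearson correlation over the 8 arrays, signs as deposited. The arrays are 4 pairs that share RNA, so the coefficients describe these arrays and carry no p. *ND-B8* and clone 1 of *ND-13A* correlated at 0.93 (0.88 without pair 3), which placed clone 1 at rank 199 among all clones for *ND-B8*. The clones of *ND-13A* correlated at 0.80, and clone 2 held rank 803 for clone 1. *ND-51* correlated with *ND-B8* at -0.91 and with clone 1 at -0.86.

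Closest to *ND-B8* among clones with a single symbol were *coil* (0.993), which encodes coilin, *tyf* (0.991) and the troponin C gene *TpnC41C* (0.991). Closest to clone 1 of *ND-13A* were *Fis1* (0.988), whose product takes part in mitochondrial fission, *CG3213* (0.988) and *twit* (0.986). Correlations over 0.9 were held by 138 of 2832 clones with *ND-B8* and by 134 of 2831 with clone 1, but by 16 of 2831 with clone 2, whose nearest were *CG5421* (0.963), *CkIIbeta2* (0.954) and *CG6333* (0.946). For *ND-51* there were 34 of 2832, led by *CG10737* (0.984), the proton pump subunit gene *Vha16-1* (0.975) and *CG7182* (0.969). Of these 12 clones, picked for their likeness on the same arrays, 7 passed in the dye component (*coil*, *tyf*, *TpnC41C*, *Fis1*, *CG3213*, *Vha16-1* and *CG7182*) and 4 in pair 3 (*coil*, *TpnC41C*, *Fis1* and *CG3213*). Of all 2833 clones with a single symbol, 237 passed in the dye component and 96 in pair 3. Clones picked for likeness to called members tend to be called too, so these counts are no separate evidence.

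**Figure D5:**
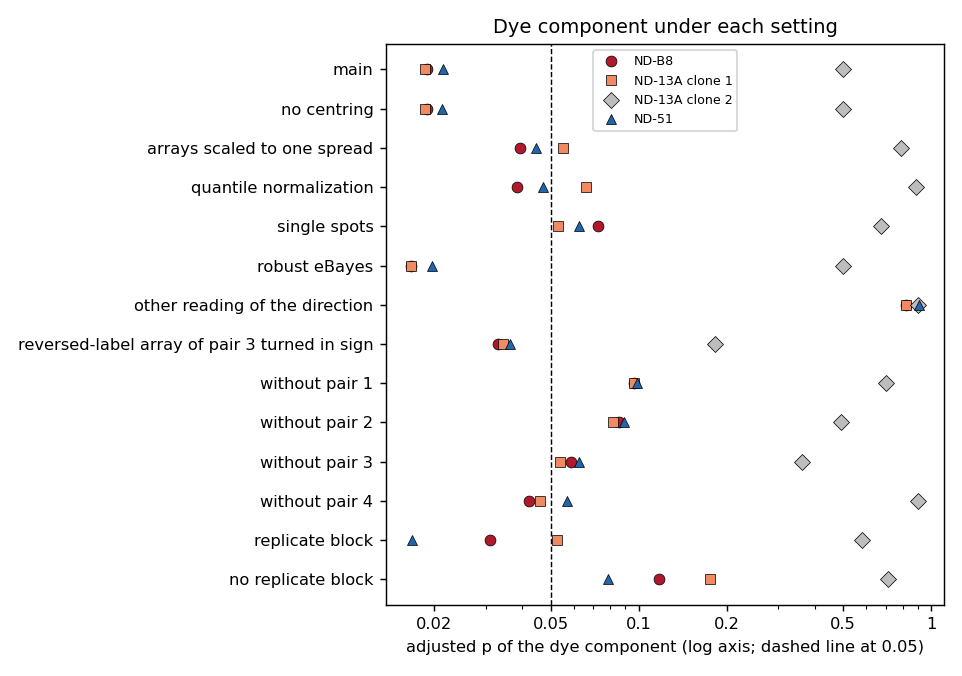
Adjusted p of the dye component (horizontal axis, log scale, dashed line at 0.05) of each complex I clone under the main setting and each alternative (vertical axis). ND-B8, ND-13A clone 1 and ND-51 lie left of the line in the main setting and right of it without pair 1, 2 or 3, and ND-13A clone 2 lies right of it in every setting.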

How the data were processed

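RNA of 8 ethanol-treated pools was compared on 8 arrays. The deposited values were taken as log2 ratios per spot, 16896 on each array with none missing. Their array medians lay near 0 (-0.00233 to 0.0011). The sources used here give no scanner settings, background correction, normalization or log base. Base 2 was inferred because the largest value, 17.5, is a ratio of 187000 in base 2. Without intensities, no filter on dim spots or statement on depth was possible; the number of arrays limits precision.

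Each array was centred on its median, and odd and following even spots, which hold the same clone, were averaged. Of 8448 clones 2833 had 1 platform symbol, all found by Entrez identifier in the RefSeq table of GCF_000001215.4, used for names and gene order only. Arrays of opposite label from different pairs correlated at -0.412 to 0.128 across clones (median -0.157, 9 of 12 below 0), so the ratio was read as pool over pool. This choice used the same values as the dye test, so the dye calls are no separate evidence for it.

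Tests used limma 3.58.1 in R 4.3.3 on all clones and were tested on simulated data. For each clone the simulated noise was independent between arrays and equally wide on all of them. It held no spread between pools and no array as wide as the normal-label array of pair 3, so it does not cover these features. Both arrays of a pair carry the same RNA, so the pair was the replicate. Deviations of paired arrays from the clone mean, in dye orientation, correlated at -0.525 to -0.109. Subtracting the clone mean itself lowers such correlations, and unpaired arrays were not compared, so these values do not test the pairing. Members and lists were chosen with earlier results of these data known. Named were all member clones, respiratory chain clones, list members past 5% in the dye component, and the 3 best-correlated clones of each member. The male list's clones, the muscle clones that did not pass, and *Fum4*, *tomboy20* and *Scsalpha1* were chosen after their values were seen. Alternatives varied centring, scaling, duplicate spots, moderation, direction, threshold, pairing and the arrays used.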

Additional observations from a re-analysis of the deposited data

How the results depend on the processing

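The dye component of clone 2 of *ND-13A* kept its sign and did not pass under 13 alternatives. The 3 called clones also kept their signs, but the number called was 0 with single spots, with the ratio read in the other direction, at a 1% threshold, and without the pairing (no replicate block), and 0 to 2 with 1 pair left out. Over all clones, 723 calls became 286 when arrays were scaled to one spread, 258 after quantile normalization, 95 of 16896 spots on single spots, where both spots of a member clone had to pass and the larger adjusted p is given, 481 with the sign of the pair 3 array of reversed label turned, 3 at the 1% threshold, 0 with the other reading, 0 with no replicate block and 3 to 359 with 1 pair left out.

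The values that missed 5% in the dye component were as follows. For clone 1 of *ND-13A* they were -0.36 with scaled arrays (adjusted p = 0.055), -0.38 with quantile normalization (0.066), -0.45 with single spots (0.0531), -0.25 with the other reading (0.821), -0.45 with the replicate block (0.0525) and -0.45 with no replicate block (0.176). For *ND-B8* they were -0.60 with single spots (0.0723), -0.37 with the other reading (0.821) and -0.60 with no replicate block (0.117). For *ND-51* they were 0.36 with single spots (0.0623), 0.07 with the other reading (0.91) and 0.36 with no replicate block (0.0783). With 1 pair left out, the values ran from -0.47 to -0.42 for clone 1, -0.67 to -0.53 for *ND-B8* and 0.35 to 0.38 for *ND-51*. The replicate block changed no other call.

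In the pool component, the other reading gave 3 member calls and 723 over all clones. The sign turned for clone 2 of *ND-13A* with that pair 3 array turned (0.04) and without pair 3 (0.04), and for *ND-51* without pair 3 (-0.02). With 1 pair left out, *ND-B8* ran from -0.50 to -0.11, clone 1 from -0.40 to 0.00, clone 2 from -0.25 to 0.04 and *ND-51* from -0.02 to 0.17. The F-test had 3 calls over all clones without pair 4, 12 without the normal-label array of pair 3 and 8 without its reversed-label array, none of them a member.

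In pair 3, member calls were 0 with scaled arrays, quantile normalization, single spots, the other reading and the reversed-label array turned, and 0 to 2 with a pair or an array left out. Over all clones those 5 settings also gave 0, and leaving out gave 2 to 157. Clone 2 turned to 0.07 with the other reading and with the array turned. Of the uncalled values of other pairs, *ND-51* turned in pair 1 with scaled arrays (-0.07) and quantile normalization (-0.06), and *ND-B8* in pair 4 with scaled arrays (-0.02). With the other reading, clone 1 turned in pair 2 (-0.38), and in pair 4 all turned, clone 1 to -0.53, clone 2 to -0.33, *ND-51* to 0.41 and *ND-B8* to -0.45. Quantile normalization gave 1 call in pair 1, not a member. The causes were not tested. Where pairs or arrays were left out, the fit also had fewer arrays, and the part of this was not tested either.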
